A study of Homo sapiens with 16 samples.

Results

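The DDX and DHX genes encode RNA helicases, enzymes that use ATP to unwind RNA duplexes or to pull proteins off RNA. They are named after the amino acids of one of their sequence motifs, DEAD for the DDX family and DEAH or a relative of it for the DHX family. Different members act at different steps of an RNA's life: they remodel the spliceosome, free the mRNA from the splicing machinery and carry it through the nuclear pore, shape the pre-ribosome in the nucleolus, open the leader of an mRNA for the scanning ribosome, and take part in mRNA decay and in sensing of foreign RNA. Many of them work with protein partners, such as G-patch proteins for the DEAH helicases.

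The genes described here are the rows of the deposited matrix whose symbol starts with DDX or DHX and a number, without antisense genes (symbols with a hyphen) and pseudogenes, and whose FPKM averaged 1 or more across the 16 libraries. FPKM is the number of sequenced fragments per length of transcript, scaled by the mapped fragments of the library. Of 65 such rows, 2 were antisense genes and 7 pseudogenes, and 44 of the remaining 56 passed the level, 31 of them DDX and 13 DHX genes, out of 10600 genes that pass it in the whole matrix. The level was set over all libraries, so a gene that fell with treatment could miss it: among the 12 genes left out, DHX32, DDX59 and DDX26B had an FPKM of 3.45, 1.97 and 1.48 in DMSO and means of 0.773, 0.856 and 0.916. The gene just inside was DDX60L, with a mean of 1.99. The splicing helicases DDX39B and DHX16 were listed at 0 in every library, as were the tubulin gene TUBB and the ribosome factor ABCF1, which every dividing cell uses and which lie in the same part of the genome, so these 0 values are no measure of expression.

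The cells were U2OS, an established human osteosarcoma line, and all libraries were made 6 h after the compound was added. CPT, T4 and T5 were each given at 0.5, 2, 5, 10 and 20 µM, and 1 library of cells with the solvent DMSO is the reference for all 3, so every condition has 1 library. T4 and T5 are code names of compounds that the series presents as modulators of alternative polyadenylation; the labels do not spell out CPT, the usual abbreviation of camptothecin, a poison of DNA topoisomerase I. Of 9 bone markers, 5 had an FPKM of at least 1 in DMSO, led by COL1A1 (300.6) and SPARC (227). The others, BGLAP, IBSP, SP7 and COL1A2, were at or near 0, with COL1A2 at 0.051 in DMSO and at most 0.133 in any library. Summed bone markers were lowest in DMSO (535) and reached 1011, summed epithelial markers were also lowest in DMSO (5.50) and reached 20.6, and blood markers summed to between 1.95 and 3.97, with the haemoglobin gene HBB at 0 throughout; the part of these shifts in the results was not tested. The depth of a library relative to DMSO, read from the steps between its low values, lay between 0.639 and 0.997, and total depth is unknown.

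Results below are of 2 kinds. A dose trend is the fitted change from 0 to 20 µM over the DMSO library and 5 libraries of a compound, with the standard error of the fit after ±. A matched difference is the mean difference between 2 compounds over the 5 shared doses, without the DMSO library. Changes are on the log2(FPKM + 1) scale, on which a change of a gene with low FPKM is understated, and a gene is called where its Benjamini-Hochberg adjusted p over all 10600 genes by limma is under 0.05. The labels do not tell whether libraries stem from different cultures. The p-values rest on the spread of single libraries about the fit, which may be technical. That spread also holds any departure from a straight trend and, in a matched difference, any change of the difference with dose. The 3 dose trends share the DMSO library. FPKM is a share of the RNA in a library. Less of an RNA per cell, fewer cells that contribute it and a rise of other RNAs therefore cannot be told apart.

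The median FPKM of the 44 helicases was 10.1, 9.76 and 9.64 at 20 µM CPT, T4 and T5, against 17.2 in DMSO, where single genes lay between 1.70 for DDX28 and 104 for DDX5. Their FPKM summed to 858.3, 918.4 and 877.1 at 20 µM CPT, T4 and T5, or 0.302%, 0.368% and 0.314% of the sum over all genes, against 1186.5 or 0.497% in DMSO. The heat map of ratios to DMSO shows that the fall was uneven: a block of genes lost most of their level with each compound, while others stayed near DMSO or rose.

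**Figure D1:**
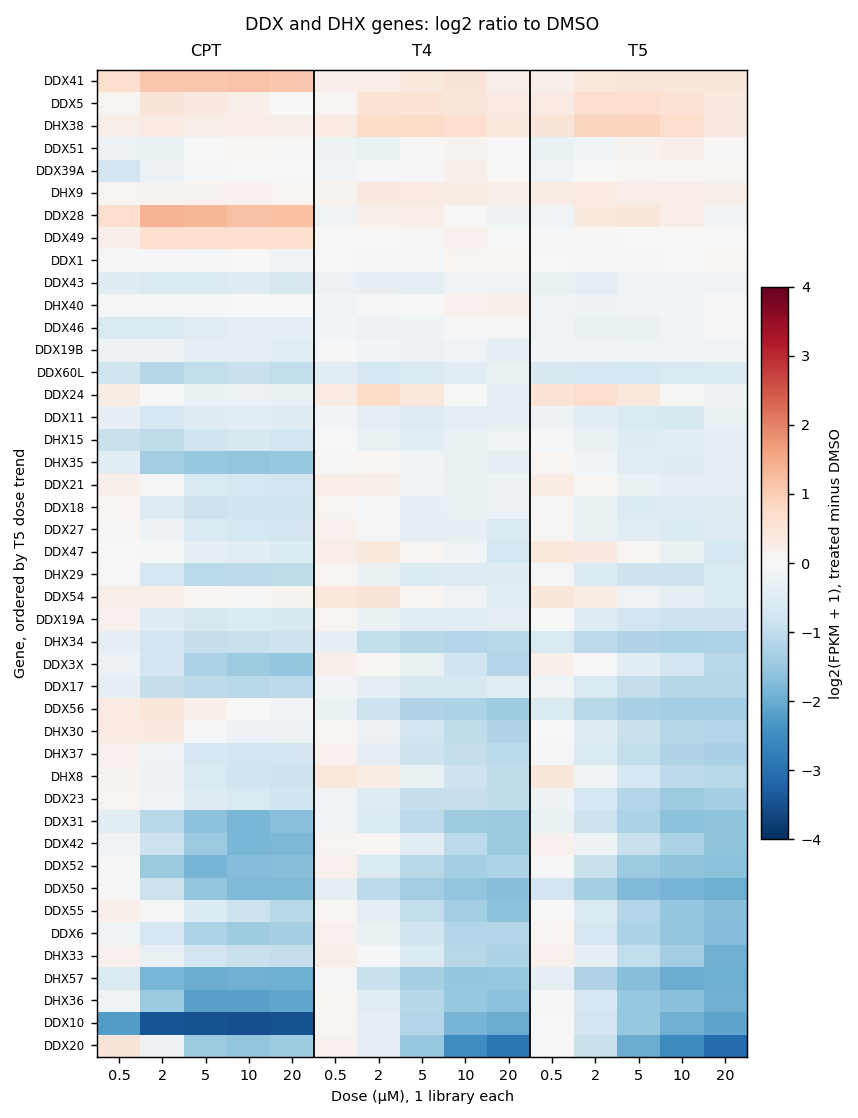
Each row is 1 of the 44 helicase genes and each column 1 library, with doses of CPT, T4 and T5 in µM from low to high; the colour is the difference in log2(FPKM + 1) from the DMSO library. Rows are ordered by the T5 trend, from DDX41 (0.43) at the top to DDX20 (-3.41) at the bottom, and DDX10 is the darkest row with CPT.

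With CPT, 24 of the 44 helicases fell with dose and 2 rose. The share that fell was 54.5%, against 25.8% of all genes tested, and the share that rose 4.55%, against 17.9% of all genes. The median change of the helicases was -0.82 and that of all genes -0.14. Of the 31 DDX genes 16 fell and 2 rose, and of the 13 DHX genes 8 fell and 0 rose (limma; 0 also at an unadjusted p under 0.05). The calls rest on the 10 µM library: without it 0 helicases were called either way by limma, and 1 of all genes, while the 8 genes with the largest called CPT trends kept their direction at adjusted p between 0.0537 and 0.0996.

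With T4, 23 helicases fell and 0 rose (limma; 0 also at an unadjusted p under 0.05), or 52.3% falling against 32.4% of all genes, and 14.5% of all genes rose. The median change was -0.59 for the helicases and -0.27 for all genes. With T5, 27 fell and 1 rose, or 61.4% falling against 34.5% and 2.27% rising against 18.2% of all genes, with medians of -0.80 and -0.29. DHX genes fell in 8 of 13 cases with T4 and 10 of 13 with T5, and DDX genes in 15 and 17 of 31.

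These splits depend on scaling. With each library centred on its median, the median trend of all genes was 0.31 with CPT, 0.38 with T4 and 0.38 with T5. The helicases then numbered 7 rising and 16 falling with CPT, 12 and 15 with T4, and 11 and 16 with T5, with medians of -0.37, 0.06 and -0.13. Of all 10600 genes, 3572 then rose and 1643 fell with CPT, 4293 and 1847 with T4, and 4388 and 1992 with T5. The T4 median of the helicases thus changed sign. The helicase median lay under that of all genes as deposited and with quantile normalization. Centring shifts all genes of a library alike, so it cannot change the gap between these medians. None of the genes chosen by the size of a called change reversed under any alternative run.

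The number of helicases lower than in DMSO by 2-fold or more on the log2(FPKM + 1) scale grew with dose. On this scale a gene with low FPKM is counted only after its FPKM fell by more than 2-fold. At 0.5 µM there was 1 with CPT, against 6.81% of all genes, and 0 with T4 and T5, against 1.03% and 4.41%. At 2 µM there were 8, 1 and 4 with CPT, T4 and T5, against 17.6%, 9.75% and 15.8%. At 5 µM there were 13, 9 and 12, against 21.0%, 17.3% and 23.8%, and at 10 µM 13, 14 and 18, against 21.3%, 21.6% and 26.1%. At 20 µM there were 14, 18 and 19, against 21.0%, 22.9% and 26.5%. The CPT count thus levelled off at 5 µM, while the T4 and T5 counts went on growing. The shares of all genes had the same shape, so it is no result about the helicases. With CPT, 0 helicases were 2-fold higher at 0.5 µM, against 2.45% of all genes, and DDX28 and DDX41 were at 2, 5, 10 and 20 µM, against 5.74%, 5.58%, 5.43% and 6.12%. These comparisons on the log2(FPKM + 1) scale are of single libraries and have no replicate check.

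Ribosome biogenesis is the largest group, with 16 helicases of the nucleolus that handle precursor rRNA. With CPT 11 of them fell and 1 rose, with T4 10 fell and with T5 12 fell, with 0 rising with T4 or T5 (limma; 0 also at an unadjusted p under 0.05), and medians of -0.99, -1.01 and -1.08. Of all genes, 25.8%, 32.4% and 34.5% fell with CPT, T4 and T5, and 17.9%, 14.5% and 18.2% rose. DDX10, which is needed for the small ribosomal subunit, stood apart. Its FPKM was 17.1 in DMSO and 2.89, 0.663, 0.617, 0.576 and 0.633 at 0.5, 2, 5, 10 and 20 µM CPT. With T4 it was 18.7, 13.2, 7.08, 4.00 and 3.57, and with T5 17.1, 9.79, 5.34, 3.74 and 3.17. At the lowest CPT dose DDX10 was already far below DMSO, whereas at the lowest dose of T4 and T5 it was at or above DMSO. Its trend was -3.06 ± 0.85 with CPT, -2.34 ± 0.30 with T4 and -2.43 ± 0.24 with T5 (adjusted p = 0.0301, 0.00218 and 0.00117, limma), and the CPT call was also lost without the 0.5 or the 5 µM library (adjusted p = 0.058 and 0.0594, limma).

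The gene spans 276 kb of chromosome 11 in GENCODE v29 (GRCh38), the longest span of the 44. The 150 bases before the RefSeq starts of DDX10 and of 3 other helicases are printed here because these genes mark the extremes of the data: DDX20 fell furthest with T4 and T5, DDX41 rose with CPT and T5, and DDX56 fell with T4 and T5 while its CPT trend was not called. Capitals mark matches to CCGGAAG (the core bound by ETS factors), CACGTG (E-box), CCAAT (the CCAAT box) and TATAAA (the TATA box) on either strand, with overlaps between motifs allowed. Coordinates are those of RefSeq on GRCh38.p14, not of the build named for the files, and each sequence runs 5′ to 3′ in the direction of the gene.
DDX10, chr11:108664919-108665068, plus strand: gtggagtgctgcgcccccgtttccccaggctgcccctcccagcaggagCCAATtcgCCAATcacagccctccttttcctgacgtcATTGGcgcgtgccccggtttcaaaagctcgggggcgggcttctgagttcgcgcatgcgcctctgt
DDX20, chr1:111755751-111755900, plus strand: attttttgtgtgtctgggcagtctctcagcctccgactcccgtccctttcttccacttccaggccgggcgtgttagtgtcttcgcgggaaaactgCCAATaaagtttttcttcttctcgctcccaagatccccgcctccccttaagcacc
DDX41, chr5:177516962-177517111, minus strand: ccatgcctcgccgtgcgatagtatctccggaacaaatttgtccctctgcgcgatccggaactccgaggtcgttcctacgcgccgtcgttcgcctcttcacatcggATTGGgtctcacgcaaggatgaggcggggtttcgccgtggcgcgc
DDX56, chr7:44573909-44574058, minus strand: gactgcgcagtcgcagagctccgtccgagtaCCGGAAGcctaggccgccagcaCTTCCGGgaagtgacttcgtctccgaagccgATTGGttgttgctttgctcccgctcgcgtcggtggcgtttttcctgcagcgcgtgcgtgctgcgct

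Over the whole promoter window of 250 bases before to 50 after the start, 40 of the 44 helicases had a RefSeq sequence. CCGGAAG was in 18 of these 40 (45%), against 10.26% of all 35116 promoters and 20.85% of 7977 promoters of genes tested here. CCAAT was in 20 (50%, against 34.61% and 36.57%) and CACGTG in 7 (17.5%, against 7.256% and 10.49%). TATAAA was in 0 of 40, against 11.53% of all promoters and 5.065% of those of genes tested. A further motif was searched in an earlier run and is left out here. A match is a description of these letters and shows no binding.

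The other strong falls among ribosome biogenesis helicases were those of DDX50, a paralog of the nucleolar helicase DDX21, and of DDX52, DDX31 and DDX55. DDX50 had an FPKM of 19.96 in DMSO, 19.0, 10.5, 6.08, 5.21 and 5.19 over the CPT doses, 15.1, 9.13, 7.02, 6.03 and 5.49 with T4, and 11.6, 7.27, 5.22, 4.74 and 4.38 with T5. It fell by 2.07 ± 0.26, 1.76 ± 0.20 and 1.94 ± 0.27 with CPT, T4 and T5. Under T5 it was lower than DMSO from the first dose on, while under CPT it was near DMSO there.

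DDX52 was at 9.04 in DMSO, at 8.79, 2.59, 1.75, 2.03 and 2.09 with CPT, at 10.3, 5.76, 3.63, 2.91 and 3.24 with T4, and at 8.65, 4.45, 2.69, 2.32 and 2.22 with T5. Its levels were at their lowest from 5 µM CPT upwards, and its trends were -2.03 ± 0.46, -1.62 ± 0.29 and -1.91 ± 0.26. The CPT call of DDX52 was lost without 0.5 µM (adjusted p = 0.0526, limma). DDX55, which takes part in making the large subunit, was at 9.46 in DMSO, at 10.9, 9.09, 6.09, 4.75 and 3.84 with CPT, at 10.0, 7.08, 4.33, 3.05 and 2.34 with T4, and at 9.42, 6.09, 3.61, 2.56 and 2.23 with T5. Its trends were -1.29 ± 0.24, -1.85 ± 0.24 and -1.94 ± 0.22. DDX31 fell to 1.65, 1.999 and 1.78 at 20 µM CPT, T4 and T5, against 7.45 in DMSO, with trends of -1.86 ± 0.29, -1.66 ± 0.20 and -1.79 ± 0.21.

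DHX33, a DEAH helicase with a role in rRNA synthesis, was at 11.8 in DMSO. It was at 13.6, 9.44, 6.63, 5.88 and 5.67 with CPT, at 14.02, 11.3, 7.54, 4.94 and 4.38 with T4, and at 13.4, 9.30, 5.52, 3.93 and 2.37 with T5. At the lowest dose all 3 compounds gave values above DMSO, and the T5 series ended lowest, with trends of -1.20 ± 0.22, -1.51 ± 0.27 and -2.09 ± 0.28. DHX37, which acts on the small subunit precursor, had trends of -1.01 ± 0.23, -1.32 ± 0.21 and -1.45 ± 0.18.

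DDX21, a helicase of rRNA transcription and processing, fell by 0.98 ± 0.19 with CPT and 0.61 ± 0.18 with T5, and its T4 trend of -0.41 ± 0.17 was not called. DDX18 fell by 1.01 ± 0.21, 0.39 ± 0.13 and 0.63 ± 0.14, and DDX27 by 0.90 ± 0.15, 0.66 ± 0.15 and 0.66 ± 0.13, with CPT, T4 and T5. DDX49 rose by 0.64 ± 0.19 with CPT (adjusted p = 0.0365, limma), with an FPKM of 18.1, 25.5, 24.6, 24.8 and 24.8 over the doses and 15.6 in DMSO. This call was lost without the 0.5, the 5 or the 10 µM library (adjusted p = 0.091, 0.0771 and 0.0996, limma). With T4 it was at 15.7, 15.6, 16.2, 17.5 and 15.6, and with T5 at 14.6, 16.1, 15.8, 15.5 and 15.9, close to DMSO throughout and without a called trend.

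DDX56, a nucleolar helicase of the large subunit, divided the compounds. With CPT its FPKM was 50.3, 56.6, 45.7, 40.2 and 36.9 over the doses, against 40.0 in DMSO. With T4 it was 33.0, 21.5, 16.7, 16.1 and 14.3, and with T5 26.3, 18.2, 15.7, 15.01 and 14.999. All 5 values with T4 and all 5 with T5 lay below the lowest CPT value and below DMSO. It fell by 1.49 ± 0.17 with T4 and 1.33 ± 0.24 with T5, and its CPT trend of -0.24 ± 0.24 was not called.

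**Figure D2:**
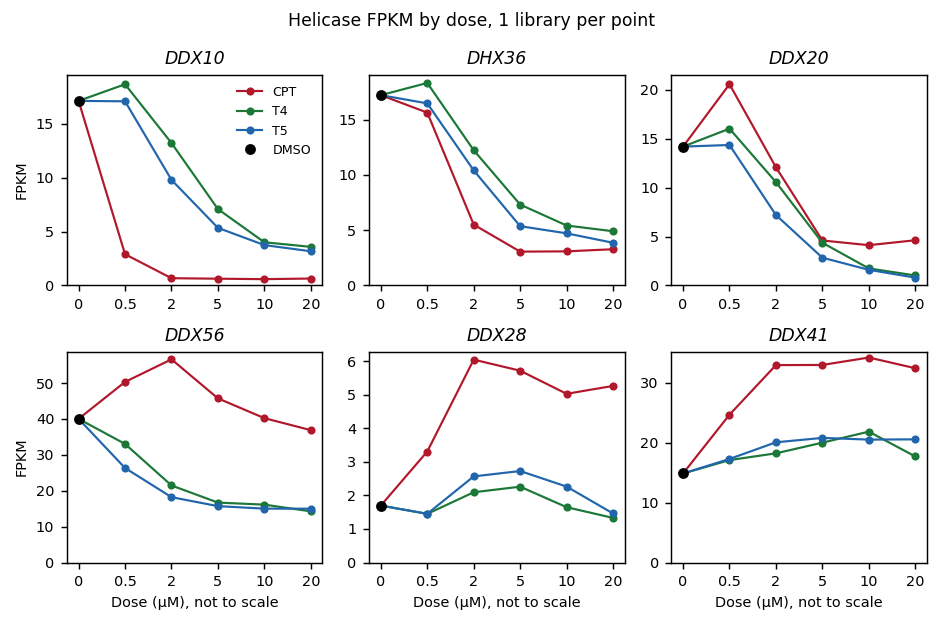
FPKM of 6 helicases (vertical axes from 0) against dose in µM, 1 library per point, with CPT in red, T4 in green, T5 in blue and DMSO in black at dose 0. DDX10 is at 2.89 with 0.5 µM CPT while T4 and T5 libraries at that dose are at 18.7 and 17.1, DDX56 stays between 36.9 and 56.6 with CPT only, and DDX28 and DDX41 are highest with CPT.

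Of 12 helicases of splicing, 10 could be tested, since DDX39B and DHX16 were listed at 0. With CPT 5 fell and 1 rose, with T4 4 fell and 0 rose (limma; 0 also at an unadjusted p under 0.05) and with T5 6 fell and 1 rose. These falling shares stand against 25.8%, 32.4% and 34.5% of all genes, and the T4 share, 4 of 10, is close to that background. DDX42, a helicase tied to the U2 snRNP, was at 31.6 in DMSO, at 28.8, 17.3, 10.9, 8.16 and 8.37 with CPT, at 34.5, 33.2, 23.3, 14.6 and 10.7 with T4, and at 35.8, 27.3, 16.4, 12.4 and 9.57 with T5. At 2 µM it was below DMSO with CPT and above it with T4. Its trends were -2.09 ± 0.22, -1.58 ± 0.31 and -1.85 ± 0.24.

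DDX23, which helps to release the U1 snRNP, fell by 0.92 ± 0.16, 1.15 ± 0.17 and 1.54 ± 0.19 with CPT, T4 and T5, and DHX8, which releases the spliced mRNA, by 1.04 ± 0.21, 1.29 ± 0.35 and 1.51 ± 0.32. DHX35, a helicase found in the catalytic spliceosome, was at 6.02 in DMSO and at 4.08, 1.69, 1.45, 1.37 and 1.44 with CPT. With T4 it was at 6.22, 6.49, 5.49, 4.70 and 4.39, and with T5 at 6.38, 5.47, 4.19, 4.03 and 4.34. From 2 µM CPT upwards its values, at most 1.69, lay below every T4, T5 and DMSO value. DHX35 fell by 1.59 ± 0.34 with CPT and 0.57 ± 0.19 with T5 (adjusted p = 0.0487, limma), and its T4 trend of -0.43 ± 0.20 was not called.

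DHX15, which takes the spliceosome apart, was at 47.0 in DMSO and already at 24.9 with 0.5 µM CPT, then at 22.8, 26.6, 29.7 and 28.1. With T4 it was at 46.3, 38.8, 35.1, 38.8 and 41.4, and with T5 at 44.5, 37.7, 33.5, 34.2 and 36.9. Every CPT value lay below every T4 and T5 value, yet the straight CPT trend of -0.39 ± 0.35 was not called, while DHX15 fell by 0.43 ± 0.13 with T5 (adjusted p = 0.0349, limma). DDX46, which acts when the branch point is recognised, was lowest at 0.5 µM CPT (12.0, against 18.9 in DMSO), with a trend of -0.14 ± 0.26.

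DDX41, a spliceosomal helicase known from inherited predisposition to leukaemia, was the clearest rise. Its FPKM was 24.7, 33.0, 33.0, 34.2 and 32.5 over the CPT doses, against 14.9 in DMSO. It was 17.1, 18.2, 20.02, 21.9 and 17.7 with T4, and 17.3, 20.1, 20.8, 20.5 and 20.6 with T5. All 15 treated libraries were above DMSO and every CPT library was above every T4 and T5 library. It rose by 0.97 ± 0.29 with CPT and 0.43 ± 0.13 with T5 (adjusted p = 0.0366 and 0.0354, limma). Both calls were lost without the 0.5, the 5 or the 10 µM library (adjusted p between 0.066 and 0.101, limma), and the T4 trend of 0.34 ± 0.17 was not called.

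DDX17 and its paralog DDX5, which also act as partners of transcription factors, moved apart. DDX17 was at 33.9 in DMSO, at 26.2, 17.1, 16.03, 15.2 and 15.9 with CPT, at 31.5, 25.5, 21.6, 21.5 and 25.1 with T4, and at 29.7, 21.9, 17.0, 14.8 and 14.7 with T5, with trends of -1.09 ± 0.23, -0.57 ± 0.18 and -1.27 ± 0.14. All 15 treated libraries were below DMSO for DDX17 and above it for DDX5. DDX5 had its highest value at 2 µM CPT (149), 2 µM T4 (152) and 5 µM T5 (168), and was not called in any trend.

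Of the 6 helicases of translation and cytoplasmic mRNA, 5 fell with CPT, 5 with T4 and 5 with T5. The shares of all genes that fell were 25.8%, 32.4% and 34.5%. DDX1, a subunit of the tRNA ligase complex, was not called in any trend, with an FPKM between 73.5 and 84.8 in all 16 libraries. DHX36, which opens G-quadruplexes in RNA and DNA, was at 17.2 in DMSO. It was at 15.6, 5.49, 3.05, 3.08 and 3.27 with CPT, at 18.3, 12.2, 7.30, 5.41 and 4.89 with T4, and at 16.5, 10.4, 5.35, 4.71 and 3.85 with T5. At 0.5 µM it was near DMSO with each compound, and at 2 µM CPT it was far lower than at 2 µM T4 or T5. It fell by 2.48 ± 0.43, 1.92 ± 0.23 and 2.16 ± 0.23.

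DDX3X, which opens structured mRNA leaders for translation, was at 68.6 in DMSO, at 58.7, 39.8, 27.8, 24.2 and 22.7 with CPT, at 78.4, 73.1, 55.1, 39.3 and 29.9 with T4, and at 79.6, 67.1, 49.8, 40.8 and 31.1 with T5. With T4 and T5 it was above DMSO at 0.5 µM and below it from 5 µM upwards. Its trends were -1.70 ± 0.15, -1.27 ± 0.26 and -1.23 ± 0.21. DDX6, a helicase of mRNA repression and decay, was at 17.8 in DMSO, at 15.8, 10.6, 7.001, 6.00 and 6.42 with CPT, at 20.3, 14.5, 9.70, 7.29 and 7.28 with T4, and at 18.7, 10.8, 6.78, 5.34 and 4.66 with T5. It fell by 1.57 ± 0.22, 1.49 ± 0.23 and 2.01 ± 0.22. DHX29, which helps the scanning ribosome, fell by 1.23 ± 0.25, 0.66 ± 0.19 and 0.81 ± 0.25, and DHX34, which takes part in nonsense-mediated decay, by 0.84 ± 0.24, 1.18 ± 0.27 and 1.18 ± 0.28.

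DDX20, also known as Gemin3, a subunit of the SMN complex that loads Sm proteins onto small nuclear RNAs, fell furthest with T4 and T5. It was at 14.2 in DMSO, at 16.04, 10.6, 4.36, 1.73 and 1.01 with T4, at 14.4, 7.20, 2.83, 1.59 and 0.791 with T5, and at 20.6, 12.1, 4.59, 4.11 and 4.62 with CPT. The CPT series levelled off from 5 µM while the T4 and T5 series went on falling at each dose. DDX20 fell by 3.30 ± 0.42 with T4, 3.41 ± 0.30 with T5 and 2.09 ± 0.46 with CPT (adjusted p = 0.00207, 0.00104 and 0.0163, limma). DHX9, an abundant helicase that resolves RNA-DNA hybrids and inverted repeats, was not called in any trend, and all its treated libraries lay above DMSO, between 84.7 and 102, against 79.2.

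Of 5 mRNA export helicases 3 could be tested, and 1 of them fell with each compound, or 33.3%, against 25.8%, 32.4% and 34.5% of all genes with CPT, T4 and T5. DDX19A fell by 0.80 ± 0.22, 0.52 ± 0.17 and 1.01 ± 0.18 with CPT, T4 and T5, while its near-identical neighbour DDX19B was not called in any trend (-0.39 ± 0.15, -0.34 ± 0.14 and -0.13 ± 0.12); reads that fit either copy could be split in a way that is not given, so that both are uncertain. DDX39A was not called in any trend; it was at 27.9 with 0.5 µM CPT, against 48.2 in DMSO, and between 43.95 and 56.1 in the T4 and T5 libraries.

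The mitochondrial helicases DDX28 and DHX30, which help to build the mitochondrial ribosome, differed from each other. DDX28, which spans 2.17 kb, was at 1.70 in DMSO, at 3.31, 6.04, 5.71, 5.03 and 5.26 with CPT, at 1.45, 2.09, 2.26, 1.65 and 1.33 with T4, and at 1.45, 2.57, 2.73, 2.26 and 1.46 with T5. Every CPT value lay above every other value, though its straight CPT trend (1.08 ± 0.39) missed the threshold, with adjusted p = 0.0628 by limma. DHX30 was at 22.8 in DMSO, at 24.1, 19.1, 12.9, 10.8 and 9.39 with T4, at 22.5, 15.999, 11.8, 9.76 and 9.51 with T5, and at 28.5, 29.3, 22.2, 19.4 and 19.5 with CPT. It fell by 1.38 ± 0.18 with T4 and 1.37 ± 0.16 with T5, and its CPT trend of -0.42 ± 0.22 was not called.

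Among the less studied members, DHX57 was at 8.30 in DMSO, at 5.19, 1.61, 1.34, 1.48 and 1.43 with CPT, at 7.90, 4.07, 2.68, 2.18 and 2.26 with T4, and at 6.09, 3.04, 1.84, 1.35 and 1.39 with T5. It fell by 1.99 ± 0.45, 1.78 ± 0.26 and 2.15 ± 0.26. DDX60L, a relative of an interferon-induced helicase, was between 1.09 and 2.84 in the treated libraries, against 3.61 in DMSO, with no called trend; its reads may be split with DDX60. DHX40 was not called in any trend, and neither were DDX43 and DDX11, a DNA helicase of sister chromatid cohesion that shares much of its sequence with the pseudogene DDX12P and is uncertain for that reason.

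Some helicases were highest at a low or middle dose, a shape that a straight trend does not capture. With T4 the highest of the 6 values, DMSO included, was at 0.5 µM for 17 of the 44 and at DMSO for 13. With T5 these counts were 13 and 21, and with CPT 12 and 20. The same counts were not made over all genes, so they are no result about the family. DHX38, the splicing helicase of the second catalytic step, was at 18.8, 25.5, 26.0, 24.1 and 19.6 with T4 and at 21.9, 28.3, 28.3, 24.7 and 19.2 with T5, against 14.9 in DMSO, and was between 17.6 and 18.8 with CPT. DDX24 was at 31.3 with 2 µM T4 and 30.4 with 2 µM T5, against 18.4 in DMSO, and at 14.3 and 15.4 with 20 µM. DDX47, a helicase of rRNA processing, was at 102 with 2 µM T4 and 101 with 0.5 µM T5, and at 45.5 and 45.6 with 20 µM, against 75.4 in DMSO. These genes were chosen after their values were seen.

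**Figure D3:**
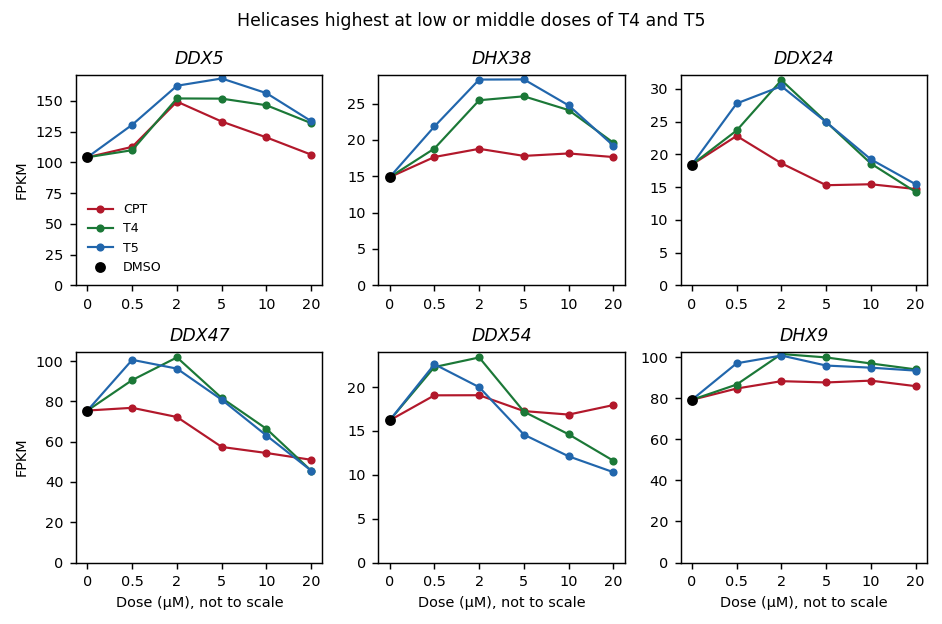
FPKM of 6 helicases (vertical axes from 0) against dose in µM, 1 library per point, with CPT in red, T4 in green, T5 in blue and DMSO in black at dose 0. The highest T4 and T5 values lie between 0.5 and 5 µM, as for DHX38 with 28.3 at 2 and 5 µM T5 against 14.9 in DMSO.

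T4 was set against CPT at matched doses to ask which helicases separate the 2 compounds when dose is the same. Here 20 helicases were higher and 8 lower with T4 than with CPT, against 28.3% higher and 36.9% lower of all genes, and the median difference was 0.19 for the helicases and -0.09 for all genes. DDX10 differed most, by 2.18 ± 0.23, followed by DHX35 (1.16 ± 0.15), DHX36 (0.68 ± 0.14) and DDX3X (0.66 ± 0.10). Lower with T4 were DDX56 (-1.19 ± 0.13), DDX28 (-1.13 ± 0.10), DDX41 (-0.70 ± 0.07) and DHX30 (-0.67 ± 0.11). By limma, adjusted p ran between 0.000462 (DDX28) and 0.00556 (DHX36) for these 8, each of which differed in the same direction at 5 of 5 doses. Without dose as a block, 8 helicases were higher and 4 lower, for which no share of all genes is given.

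T5 was set against CPT in the same way. In this comparison 18 helicases were higher and 11 lower with T5, against 25.0% and 37.6% of all genes, with medians of 0.12 and -0.10. The largest differences were those of DDX10 (1.97 ± 0.19), DHX35 (1.02 ± 0.12), DDX3X (0.63 ± 0.07) and DHX15 (0.48 ± 0.10), and, lower with T5, DDX56 (-1.32 ± 0.10), DDX28 (-0.98 ± 0.10), DDX20 (-0.87 ± 0.18) and DHX30 (-0.78 ± 0.10). By limma, adjusted p ran between 0.000201 (DDX56) and 0.00573 (DHX15) for these 8, again with 5 of 5 doses in the same direction. Without dose as a block, 7 helicases were higher and 5 lower, again with no share of all genes given. The T4 and T5 comparisons share the CPT libraries.

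**Figure D4:**
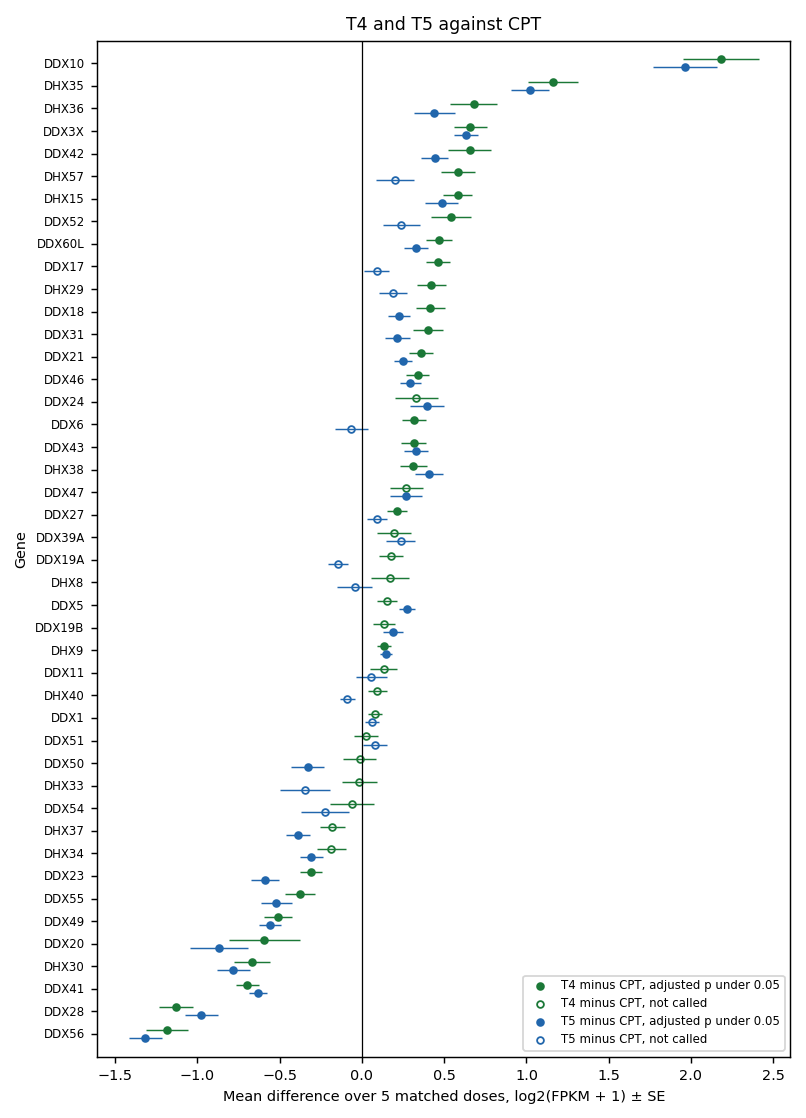
Mean difference over 5 matched doses in log2(FPKM + 1), with its standard error, for T4 minus CPT (green) and T5 minus CPT (blue) in each of the 44 helicases; filled points have an adjusted p under 0.05. DDX10 lies farthest to the right (2.18 and 1.97) and DDX56 and DDX28 farthest to the left.

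T4 and T5 were compared with each other last. As deposited, 18 helicases were higher with T4 than with T5 and 0 lower (limma; 2 lower at an unadjusted p under 0.05), against 26.5% higher and 6.05% lower of all genes. The differences were small, with a median of 0.13 against 0.06 for all genes. The largest were those of DHX57 (0.38 ± 0.04), DDX6 (0.38 ± 0.06), DDX17 (0.37 ± 0.09) and DHX33 (0.33 ± 0.08), with adjusted p of 0.00422, 0.00766, 0.021 and 0.0246 by limma. T4 was above T5 at 5 of 5 doses for each of the 4, but without dose as a block 0 helicases were called higher. The count depends on scaling: with median centring 5 helicases were higher and 7 lower. The median of all genes went from 0.06 to -0.04 with it. DDX17 and DHX33 were then not called (adjusted p = 0.0563 and 0.0738, limma). As deposited, 11 helicases were higher without 2 µM and 10 without 5 µM. No share of all genes is given for the counts under these other settings, so they are no result about the family. DDX17 was not called without 5 or 10 µM (adjusted p = 0.0581 and 0.0636, limma), nor DHX33 without 2, 5 or 10 µM (0.0628, 0.0781 and 0.0563).

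The slopes over 0.5 to 20 µM were also compared, each compound with its own starting level and without DMSO. Their differences are scaled to the span from 0 to 20 µM, as the dose trends are, which reaches beyond the doses in this fit. No slope with T4 was called against that of CPT or T5 (0 higher and 0 lower by limma in each; 5 lower than CPT and 3 higher than T5 at an unadjusted p under 0.05). In this fit without DMSO, 1.16% of all genes were higher and 6.61% lower for T4 against CPT, and 0.0% either way for T4 against T5. With a common intercept at DMSO, 13 helicase slopes were higher and 8 lower with T4 than CPT. No share of all genes is given for that other fit, so these 2 counts are no result about the family. For T5 against CPT without DMSO, 2 helicases had a lower slope and 0 a higher one (limma; 6 and 0 unadjusted), against 6.19% and 2.54% of all genes. They were DDX54, a nucleolar helicase (-1.22 ± 0.19, adjusted p = 0.00794, limma), and DHX33 (-1.15 ± 0.28, adjusted p = 0.0374, limma). DDX54 was at 22.6, 19.99, 14.6, 12.1 and 10.3 over the T5 doses and at 19.1, 19.1, 17.3, 16.9 and 18.0 over the CPT doses. Without 10 or 20 µM neither was called, and without 2 or 5 µM DHX33 was not (adjusted p between 0.0748 and 0.258, limma).

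Gene span went with the CPT values. Spans were those of GENCODE v29 on GRCh38 and were found for 44 of 44 helicases and 10036 of 10600 genes. Across the 44 helicases, Spearman's rho between span and trend was -0.48 with CPT, -0.32 with T4 and -0.36 with T5, and across all genes with a span -0.42, -0.12 and -0.20. For the T4 minus CPT difference it was 0.56 across helicases and 0.59 across all genes. The 10 helicases of 50 kb or more had a median CPT trend of -1.41 and the 34 shorter ones -0.57, against -0.62 and 0.08 for all genes of such lengths. The highest CPT trends were those of DDX28 (2.17 kb), DDX41 (5.89 kb) and DDX49 (8.96 kb), while DDX20, which fell with each compound, spans 12.8 kb. These are descriptions across genes, which share the same libraries and are not independent, and the part of span in the results was not tested.

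**Figure D5:**
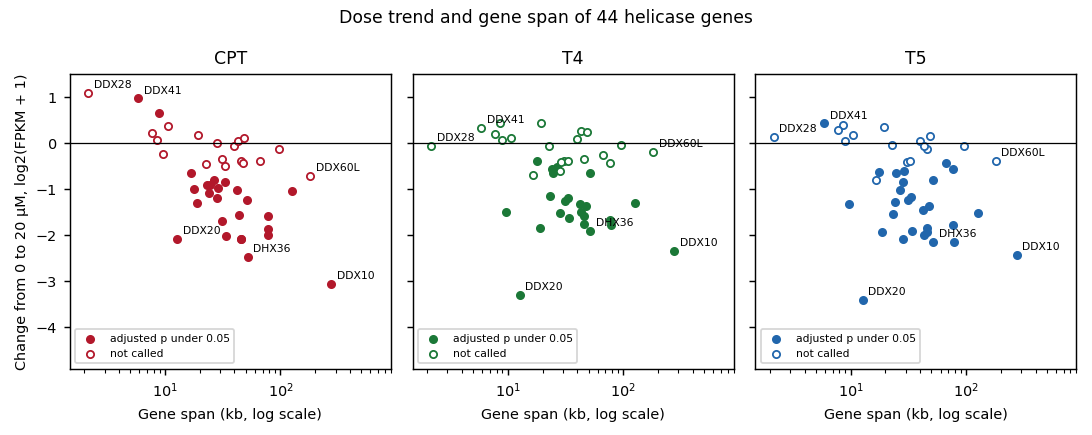
Fitted change from 0 to 20 µM in log2(FPKM + 1) against gene span in kb (log axis) for the 44 helicases with CPT, T4 and T5; filled points have an adjusted p under 0.05. With CPT the shortest genes lie highest and DDX10, the longest at 276 kb, lies lowest (-3.06), while DDX20 at 12.8 kb is the lowest point with T4 and T5.

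Other RNA helicases, without a DDX or DHX name, gave 3 rising and 6 falling of 16 tested with CPT, 4 and 7 with T4, and 3 and 9 with T5. The shares that rose, 18.8%, 25.0% and 18.8%, stand against 17.9%, 14.5% and 18.2% of all genes, and with CPT and T5 they are near that background. Those that fell were 6, 7 and 9 of 16, against 25.8%, 32.4% and 34.5% of all genes. The rising ones were the RISC helicase MOV10 (0.49, 0.58 and 0.64 with CPT, T4 and T5), the spliceosomal SNRNP200 (0.41, 0.52 and 0.45), the translation factor EIF4A1 with CPT (0.41) and T4 (0.47), and its paralog EIF4A2 with T4 (0.64) and T5 (0.67); they are named after their values were seen. Of 34 protein partners of helicases, 19 fell and 0 rose with CPT, 18 fell and 1 rose with T4, and 22 fell and 2 rose with T5, with medians of -0.80, -0.77 and -0.94. Those that rose were the mRNA export adaptor ALYREF, by 0.44 ± 0.12 with T4 and 0.58 ± 0.14 with T5, and the THO subunit THOC7, by 0.43 ± 0.13 with T5, both named after their values were seen. No partner rose with CPT by limma, and 1 did at an unadjusted p under 0.05.

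The partners with the largest changes included subunits of the SMN complex to which DDX20 belongs. GEMIN2 fell to 1.98, 1.33 and 1.36 at 20 µM CPT, T4 and T5, against 13.2 in DMSO, and its trends were -2.57 ± 0.27, -2.83 ± 0.24 and -2.87 ± 0.35. GEMIN5 fell with all 3 compounds, with trends of -2.29 ± 0.33, -2.33 ± 0.31 and -2.32 ± 0.26 with CPT, T4 and T5. GEMIN4 fell with T4 (-2.39 ± 0.27) and T5 (-2.44 ± 0.23), to an FPKM of 1.25 and 0.993 at 20 µM, against 10.2 in DMSO. The CPT trend of GEMIN4, 0.51 ± 0.27, was not called, at an FPKM of 16.03 with the top dose. RBM5, a splicing regulator with a G-patch, fell with trends of -2.49 ± 0.40, -2.95 ± 0.39 and -3.31 ± 0.34 with CPT, T4 and T5, and ZC3H18, a nuclear RNA decay factor, with trends of -1.96 ± 0.32, -2.04 ± 0.25 and -2.51 ± 0.21. SMN1, the core of the SMN complex, was named after its values were seen and was not called in any trend (-2.24 ± 1.03, -0.62 ± 1.21 and -1.75 ± 0.94). Its FPKM lay between 0.000337 and 6.52 in treated libraries, against 6.42 in DMSO, and is uncertain, since its reads may be split with the near-identical SMN2.

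Of the 12 family genes under the level of 1, DDX39B, DHX16 and DDX53 were listed at 0 throughout and the other 9 were fitted without that level. DDX3Y, DDX4, DDX25 and DDX60 were not called in any trend, and 5 others are described here. DHX32 was at 2.94, 0.788 and 0.443 with 0.5 µM CPT, T4 and T5 and at 0.478, 0.348 and 0.244 with 20 µM, against 3.45 in DMSO. It fell by 1.81 ± 0.27 with CPT, and its T4 and T5 trends of -1.44 ± 0.52 and -1.45 ± 0.63 were not called. DDX59 fell by 1.01 ± 0.20, 1.11 ± 0.18 and 1.03 ± 0.24 with CPT, T4 and T5, and DDX26B by 0.80 ± 0.20 with T4 and 0.88 ± 0.17 with T5. The sensors of viral RNA were low. DDX58, better known as RIG-I, was at 0.894 or less in every treated library, against 1.32 in DMSO, and fell by 0.81 ± 0.18 with T4, with CPT and T5 trends of -0.88 ± 0.25 and -0.78 ± 0.23 that were not called. DHX58, also called LGP2, was at 0.0793, 0.299, 0.498, 0.547 and 0.664 with CPT, against 0.0399 in DMSO, and rose by 0.73 ± 0.06 with CPT (adjusted p = 0.0233, limma). These levels lie where FPKM is least certain.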

How the data were processed

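RNA of U2OS cells was sequenced from 16 libraries, 1 per condition. The authors deposited FPKM per gene in a single matrix, per the file headers. The submitters' processing notes name GSNAP, Cufflinks, hg19 and GRCh37 without roles; versions, annotation, strand and filtering were not found in these sources. After 220 repeated lines, 2 inner headers and 1 incomplete line were dropped, 25270 genes remained. Relative depth came from values under 0.2 FPKM, on a grid smoothed by 0.02 log2 units.

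For genes averaging at least 1 FPKM, log2(FPKM + 1) was fitted by limma 3.58.1 (R 4.3.3, data.table, version 1.17.8) with a mean-variance trend, 2-sided tests and Benjamini-Hochberg adjustment at 0.05. Dose entered as log2(1 + dose / 0.5 µM), and matched differences had dose as a block. The code was tested on simulated data. Python 3.11.15 (pandas 2.3.3, numpy 2.4.6, matplotlib 3.10.9) was used for summaries and plots. Alternatives changed the pseudocount (to 0.1), the filter, the scaling, the dose scale, the block, the intercept and the libraries fitted.

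Members and lists were chosen with earlier results of these data known. Values in every library are given for the 6 largest called rises and falls of each trend and the 4 of each matched comparison, and up to 3 called non-members per trend are named. Values of further genes were added after they were seen. Gene spans are from GENCODE v29, promoters from RefSeq (GRCh38.p14).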

Additional observations from a re-analysis of the deposited data

Results flagged for a closer look

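Of the helicases, 2 had a dose slope over 0.5 to 20 µM that was lower with T5 than with CPT by the test of the difference itself. These were DDX54 (-1.22 on the log2 scale, T5 minus CPT) and DHX33 (-1.15), with the differences scaled to the span from 0 to 20 µM. They are 4.55% of the 44 helicases, against 6.19% of all genes, so the count is no result about the family. DDX54 had an FPKM of 10.3 at 20 µM T5 and 18.0 at 20 µM CPT, and DHX33 2.37 and 5.67. Neither was called without the 10 or the 20 µM libraries, nor DHX33 without those of 2 or 5 µM.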

How the results depend on the processing

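No paired analysis was possible because each condition has 1 library and no replicate numbers are given to pair by; the block in the matched differences is dose. Counts of helicases were as follows where they moved by over 1.5 times, given here without the shares of all genes under the same settings. The cause was not tested. With median centring, 7 rose with CPT, 12 rose and 15 fell with T4, 11 rose and 16 fell with T5, 5 were higher and 7 lower with T4 than T5, and 1 slope was lower with T5 than CPT. With quantile normalization, 4, 4 and 3 rose with CPT, T4 and T5, 10 were higher and 1 lower with T4 than T5, and 1 slope was lower with T5 than CPT. With dose entered untransformed, 0 rose and 0 fell with CPT, 10 fell with T4, 0 rose and 5 fell with T5, and 0 slopes were lower with T5 than CPT. In a joint fit of all 16 libraries 1 rose with T4 and 2 with T5, and with treated libraries only 1 rose with CPT and 1 with T4. Without the filter, 0 rose with CPT, 11 were higher with T4 than T5, and 1 slope was lower with T5 than CPT. A pseudocount of 0.1 gave 1 slope lower with T4 than CPT. Without dose as a block, 8 were higher and 4 lower with T4 than CPT, 7 higher and 5 lower with T5 than CPT, and 0 higher with T4 than T5. With a common intercept at DMSO, 13 slopes were higher and 8 lower with T4 than CPT, and 7 higher and 11 lower with T5 than CPT.

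Leaving out 1 dose at a time gave 0 to 3 rising and 0 to 24 falling with CPT, 0 to 3 rising and 17 to 21 falling with T4, 0 to 2 rising and 21 to 26 falling with T5. At matched doses it gave 17 to 22 higher and 7 to 8 lower for T4 against CPT, 12 to 18 higher and 10 to 11 lower for T5 against CPT, and 10 to 20 higher and 0 to 1 lower for T4 against T5. Slopes lower than CPT numbered 0 to 4 for T4 and 0 to 5 for T5, the highest counts both without 0.5 µM. All these counts are given without the shares of all genes in the same runs, so they are no result about the family. With FPKM alone and 1 library per condition, depth limits low genes in a way that cannot be put in counts.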
